A study of Mus musculus with 8 samples.

Results

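The SLAM receptors and their adaptors were examined in endogenous CD8+ T cells of tumor-bearing mice, split by the amount of the interleukin-18 receptor on their surface. The members were the 10 genes of the deposited expression table, out of 47493, whose gene name was *Cd48*, *Slamf1*, *Slamf7*, *Slamf6*, *Cd84*, *Ly9*, *Slamf8*, *Slamf9*, *Sh2d1a* or *Sh2d2a*. The first 8 encode receptors and the last 2 encode adaptors. SLAM receptors are immunoglobulin-like proteins of blood cells, and most of them bind a copy of themselves on a neighboring cell, while CD48 is the ligand of CD244, a further receptor of the family. Tyrosine motifs in the tails of most of these receptors dock SAP, the product of *Sh2d1a*, which brings the kinase Fyn to the receptor, and phosphatases can occupy the same motifs when SAP is lacking. The family is known for its part in killing by CD8+ T cells and NK cells, in contacts between T and B cells and in the development of innate-like T cells. *Sh2d2a* encodes TSAd, an SH2-domain adaptor of activated T cells that binds Lck and belongs to a different family from SAP, although it was grouped with it here.

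All mice were female C57BL/6 mice aged 6 to 8 weeks that carried B16F10, a mouse melanoma line (200000 cells in the skin on day 0). Every mouse received 300 mg/kg cyclophosphamide on day 3, 2000000 Thy1.1 Pmel-1 cells, which are CD8+ T cells with a transgenic receptor for a melanoma antigen, on day 5, IL-2 (10000 IU daily for 3 days) from day 5, and the anti-CD4 antibody GK1.5 (200 μg) on days 10, 17 and 24. On day 25, Thy1.1-negative CD8+ T cells, that is the host's own and not the transferred cells, were isolated from inguinal lymph nodes and spleen. Cells that bound a PE-labeled antibody against IL-18Rα were held on a magnetic column (IL-18Rαhi-enriched), and the cells that passed through it served as control (flow-through). Each of 4 mice gave 1 library of each fraction, so replicates with the same number come from the same mouse. Both fractions shared every treatment, so the comparison is between cells of treated mice and says nothing of the anti-CD4 antibody itself, and the cells are a mixture of clones from more than 1 organ.

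Levels are in FPKM, fragments scaled to transcript length and to the library's depth. Estimated depth was 14800000 to 17800000 fragments per library, and 11706 to 12288 genes reached 1 FPKM. *Il18r1*, the gene of the selected receptor chain, was at 22.2 to 37.2 FPKM in flow-through libraries and at 106.6 to 116.0 FPKM in enriched libraries, so the labels of the fractions held and the flow-through was not free of its RNA. CD8 T-cell genes were abundant in every library, with a summed level of 8 markers of 1116 to 2111 FPKM in flow-through cells and 2070 to 2239 FPKM in enriched libraries. Flow-through replicate 1 stood apart: the geometric mean of 6 T-cell genes (*Cd3d*, *Cd3e*, *Cd3g*, *Cd247*, *Cd8a* and *Cd8b1*) was 151 FPKM there, whereas the other 3 of that fraction were at 241 to 287 FPKM and the enriched ones at 278 to 297 FPKM. The summed level of 8 erythroid markers was highest in the same library, at 1463 FPKM, followed by enriched replicate 1 of the same mouse at 1294 FPKM, and lay between 141 and 777 FPKM in the others. The part of these RNAs in the values below was not tested. Results are therefore also given without that library and after each library was divided by its T-cell geometric mean (T-cell scaling).

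The 8 receptor members and *Cd244* lie together on mouse chromosome 1, and the windows of 250 bases before the start sites of *Cd48*, *Slamf7*, *Slamf1* and *Cd84* are shown because the first 3 changed by similar amounts while *Cd84*, in the same cluster, changed less. Sequences are from RefSeq on GRCm38.p6 (mm10), read 5′ to 3′ along the gene, and end at the base before the RefSeq start. Capitals mark matches, on either strand, to 3 short motifs searched by their letters: GGTGTGA (T-box), TGTGGT (Runx) and TGACTCA (AP-1).
Cd48, chr1:171681742-171681991, plus strand: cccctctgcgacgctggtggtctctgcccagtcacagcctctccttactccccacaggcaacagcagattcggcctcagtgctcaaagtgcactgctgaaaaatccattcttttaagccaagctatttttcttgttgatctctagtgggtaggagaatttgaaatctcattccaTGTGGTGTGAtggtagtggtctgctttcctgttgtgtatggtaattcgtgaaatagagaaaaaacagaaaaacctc
Slamf7, chr1:171649000-171649249, minus strand: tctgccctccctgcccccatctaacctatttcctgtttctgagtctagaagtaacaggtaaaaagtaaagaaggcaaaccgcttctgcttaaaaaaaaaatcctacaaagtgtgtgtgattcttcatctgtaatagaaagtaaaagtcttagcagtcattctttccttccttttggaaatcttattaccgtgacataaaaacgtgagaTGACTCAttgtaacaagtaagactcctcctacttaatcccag
Slamf1, chr1:171766882-171767131, plus strand: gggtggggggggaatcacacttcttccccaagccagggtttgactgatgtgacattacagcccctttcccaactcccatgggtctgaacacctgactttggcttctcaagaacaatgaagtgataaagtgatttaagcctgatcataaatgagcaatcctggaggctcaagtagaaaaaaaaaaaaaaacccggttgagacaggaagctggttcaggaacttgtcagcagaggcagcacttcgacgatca
Cd84, chr1:171839447-171839696, plus strand: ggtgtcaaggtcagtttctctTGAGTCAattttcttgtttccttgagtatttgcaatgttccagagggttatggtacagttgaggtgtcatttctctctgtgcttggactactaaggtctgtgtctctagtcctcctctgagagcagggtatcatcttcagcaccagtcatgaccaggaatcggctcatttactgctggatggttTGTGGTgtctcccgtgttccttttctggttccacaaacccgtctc
The *Cd48* window held a T-box match from 73 to 67 bases before the start and a Runx match from 76 to 71 bases before it, and the letters of these matches overlap, so the capitals form 1 run. The *Slamf7* window held an AP-1 match from 42 to 36 bases before the RefSeq start. That window lies inside the *Slamf7* gene as placed by GENCODE M21 (171632403 to 171653035). Distances along the cluster use the GENCODE start instead. The *Cd84* window held a Runx match at 45 to 40 bases and an AP-1 match on the opposite strand at 229 to 223 bases before the start. None of these letters occurred in the *Slamf1* window or in those of *Slamf6*, *Slamf8* and *Slamf9*, and windows of 7 of the 10 members were at hand. Among 32851 promoter windows of the same length, 3.3% held the T-box letters, 14% the Runx letters and 4.5% the AP-1 letters. A match describes the letters of the window and is not a measured binding site.

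Of the 10 members, 6 rose in the IL-18Rαhi-enriched fraction (*Slamf7*, *Slamf8*, *Cd48*, *Slamf1*, *Sh2d2a* and *Sh2d1a*) and none fell, by limma at an adjusted p under 0.05. *Slamf6*, *Cd84* and *Ly9* were also higher but did not pass, and *Slamf9* was below the level at which genes were tested. The count was thus 6 of 9 tested members, beside 14.1% of all 12166 genes tested that were higher and 13.7% that were lower. *Slamf8* (0.897 ± 0.337 FPKM in flow-through libraries) passed the filter of 1 FPKM through its enriched libraries. A fall could therefore not have been counted for it. With a mean of at least 5 FPKM, which left *Slamf8* untested, 5 members rose, beside 1338 higher and 1374 lower of 9329 genes. No member was lower at an unadjusted p under 0.05 either, and 9 were higher, beside 2433 of all 12166 genes that were higher at that threshold. The median log2 fold change of the 9 tested members was 0.78, beside -0.02 over all genes. The members were named with earlier results of these data known, so these counts are a description and no test of the family.

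**Figure D1:**
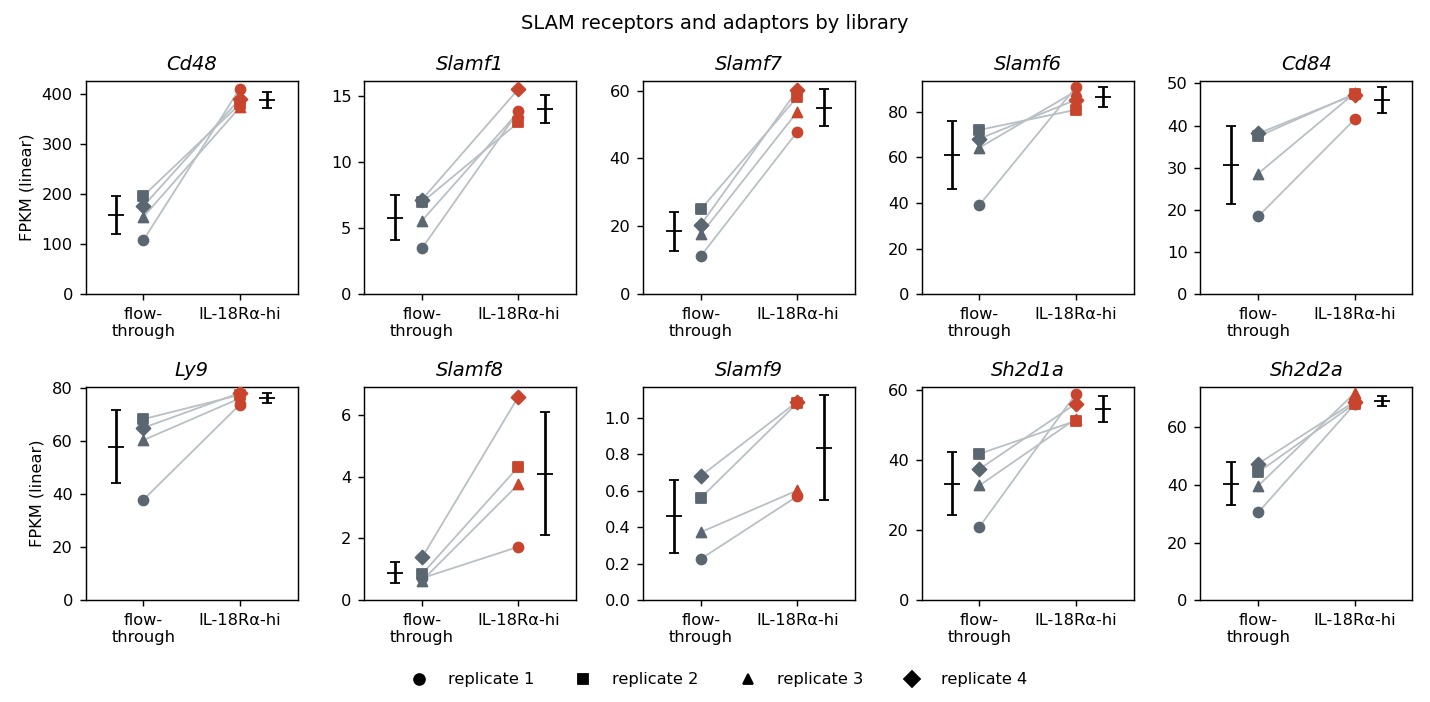
Levels of the 10 members in FPKM (linear axes from 0) in each flow-through and IL-18Rαhi-enriched library, with lines joining libraries of the same mouse, symbols for the mouse (replicate 1 to 4) and bars for mean ± SD of 4 libraries. Every line goes up, the fractions do not overlap except for *Slamf9*, and flow-through replicate 1 is the lowest library for each member but *Slamf8*.

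CD48, a lipid-anchored protein that binds CD244 and, in mice, CD2, was the most abundant member in both fractions. *Cd48* (ENSMUSG00000015355; mm10 chromosome 1, 171682009 to 171705258, plus strand) was at 107.7, 196.1, 154.1 and 175.7 FPKM in flow-through replicates 1 to 4 and at 409.9, 378.9, 372.6 and 389.2 FPKM in the enriched replicates. The lowest enriched library was well above the highest flow-through library, and the enriched libraries lay close together. The mean rose from 158 ± 37.9 to 388 ± 16.4 FPKM, a ratio of 2.45, and the log2 fold change on log2(FPKM + 1) was 1.32 (limma, SE 0.17, adjusted p = 0.0017). It was 1.15 when flow-through replicate 1 was left out and 1.03 after T-cell scaling, and the adjusted p stayed at or under 0.0085 over 14 alternatives. Within mice, the enriched level was 3.81, 1.93, 2.42 and 2.22 times the flow-through level in mice 1 to 4.

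SLAMF1, also called CD150, is a self-binding receptor that docks SAP and is found on activated and memory T cells. *Slamf1* (chromosome 1, 171767127 to 171801184, plus strand) was at 3.48, 6.95, 5.57 and 7.16 FPKM in flow-through libraries and at 13.83, 13, 13.79 and 15.52 FPKM in enriched libraries. The fractions did not overlap, and the level was low in both compared with *Cd48*. The mean rose from 5.79 ± 1.69 to 14.03 ± 1.06 FPKM, a ratio of 2.42 (log2 fold change 1.18 by limma with SE 0.18, adjusted p = 0.0035). The log2 fold change was 1.00 with flow-through replicate 1 omitted and 0.93 after T-cell scaling.

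SLAMF7, also called CRACC or CD319, binds itself and in NK cells signals through EAT-2, a relative of SAP. *Slamf7* (chromosome 1, 171632403 to 171653035, minus strand) was at 11.2, 25.0, 17.6 and 20.4 FPKM in flow-through libraries and at 47.8, 58.1, 53.7 and 60.1 FPKM in enriched libraries. Every enriched library was above every flow-through library, and replicate 1 was lowest in both fractions. The mean rose from 18.6 ± 5.76 to 54.9 ± 5.44 FPKM, a ratio of 2.96 (log2 fold change 1.56 by limma with SE 0.21, adjusted p = 0.0020), and the within-mouse ratios ran from 2.33 to 4.26. The log2 fold change was 1.35 when flow-through replicate 1 was left out and 1.29 after T-cell scaling. An antisense gene, *Gm37787*, lies inside *Slamf7*, and since the authors' counting did not use strand as far as stated, reads of the overlap cannot be assigned to either gene.

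SLAMF6 (Ly108), CD84 and Ly9 (CD229) are self-binding receptors that dock SAP and are carried by many T cells. *Slamf6* (chromosome 1, 171917515 to 171953170, plus strand) was at 39.1, 72.0, 64.2 and 68.1 FPKM in flow-through libraries and at 90.7, 80.8, 89.0 and 85.1 FPKM in enriched libraries. *Cd84* (chromosome 1, 171839697 to 171890718, plus strand) was at 18.5, 37.4, 28.6 and 38.1 FPKM and at 41.5, 47.5, 47.7 and 47.3 FPKM. *Ly9* (chromosome 1, 171588624 to 171607410, minus strand) was at 37.8, 68.2, 60.3 and 64.9 FPKM and at 73.6, 77.3, 76.0 and 78.1 FPKM. For all 3 genes the fractions did not overlap and flow-through replicate 1 was the lowest library, and for *Cd84* flow-through replicate 3 was also well below replicates 2 and 4 of that fraction. The ratio of means was 1.42 for *Slamf6* (60.8 ± 14.8 to 86.4 ± 4.4 FPKM). It was 1.5 for *Cd84* (30.7 ± 9.21 to 46.0 ± 3.04 FPKM) and 1.32 for *Ly9* (57.8 ± 13.7 to 76.3 ± 1.95 FPKM). These differences were not past the threshold: the log2 fold changes were 0.53 (95% interval 0.13 to 0.94, limma adjusted p = 0.054), 0.62 (0.15 to 1.10, adjusted p = 0.056) and 0.43 (0.04 to 0.82, adjusted p = 0.092).

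Whether *Slamf6*, *Cd84* and *Ly9* were called depended on the fit. With the mouse as a block in limma, which is the fit that uses the shared origin of the fractions, all 3 passed, with adjusted p of 0.035 for *Slamf6*, 0.013 for *Cd84* and 0.034 for *Ly9*. Without flow-through replicate 1 they also passed, at smaller log2 fold changes of 0.34, 0.40 and 0.24. Without flow-through replicate 2 *Slamf6* (0.63) and *Cd84* (0.73) passed, and without replicate 4 of that fraction *Cd84* did (0.74). Under T-cell scaling they did not, with log2 fold changes of 0.25, 0.34 and 0.15. Over the 14 alternatives the adjusted p ran from 0.011 to 0.24 for *Slamf6*, from 0.013 to 0.16 for *Cd84* and from 0.029 to 0.48 for *Ly9*. *Ly9* lies inside *Cd244* on the opposite strand, and *Slamf6* overlaps the antisense gene *Gm37065*, so both carry the same doubt about strand as *Slamf7*.

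SLAMF8 and SLAMF9 have short tails without the motifs that dock SAP and are best known from myeloid cells. *Slamf8* (chromosome 1, 172581758 to 172590568, minus strand) was at 0.717, 0.848, 0.637 and 1.38 FPKM in flow-through libraries and at 1.73, 4.32, 3.75 and 6.59 FPKM in enriched libraries. The fractions did not overlap, and the enriched libraries differed widely among themselves, with replicate 1 lowest and replicate 4 highest. The mean rose from 0.897 ± 0.337 to 4.1 ± 2.0 FPKM, a ratio of 4.57 (log2 fold change 1.35 by limma with SE 0.29, adjusted p = 0.011). The gene passed the filter of 1 FPKM through its enriched libraries, and with a pseudocount of 0.1 its log2 fold change was 1.99. *Slamf9* (chromosome 1, 172475358 to 172478575, plus strand) was at 0.226, 0.561, 0.373 and 0.681 FPKM in flow-through libraries and at 0.570, 1.08, 0.602 and 1.09 FPKM in enriched libraries. Its fractions overlapped, and the difference of means (0.460 ± 0.201 and 0.835 ± 0.288 FPKM) had p = 0.11 by exact two-sided permutation of 4 against 4 libraries, where the smallest possible p is 0.029. That test does not use the pairing by mouse, and an exact sign-flip test, which does, cannot go below p = 0.125. *Slamf9* was higher in the enriched library of every mouse.

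Some markers of other cells moved with these members of low level. The summed level of 6 conventional dendritic cell markers was 16.4, 22.6, 14.6 and 25.3 FPKM in flow-through cells and 34.9, 57.8, 48.4 and 74.9 FPKM in enriched libraries, and 5 of the 6 rose. This sum had replicate 1 lowest and replicate 4 highest in the enriched fraction, as *Slamf8* did. The 10 macrophage and monocyte markers summed to 116 to 395 FPKM and 382 to 895 FPKM, and 5 of 9 tested rose. Most of this sum was *Lyz2*, at 99.0 to 346.8 FPKM and 338.1 to 811.1 FPKM. The 8 NK cell markers summed to 30.7 to 78.1 FPKM and 67.0 to 131.6 FPKM, and 4 of 7 tested rose. No gene of these lists was at 0 in all libraries. *Xcr1*, a dendritic cell marker, was at 0.207 to 0.978 FPKM and 3.02 to 6.38 FPKM. *Ncr1*, an NK cell marker, was at 0.623 to 2.68 FPKM and 7.33 to 27.1 FPKM. The paper reports *Ncr1* as upregulated in these enriched CD8+ T cells. Other markers were not called: *Zbtb46* of the dendritic cell list had a log2 fold change of -0.23 (limma adjusted p = 0.41). In the NK cell list, *Eomes* had 0.08 (adjusted p = 0.66), *Fcgr3* 0.50 (adjusted p = 0.51) and *Prf1* 0.43 (adjusted p = 0.070). The summed B cell markers overlapped between the fractions (26.0 to 67.9 and 42.2 to 87.9 FPKM, 1 of 6 tested rose), and so did the macrophage and NK cell sums. Of the remaining lists, 2 of 6 γδ T-cell, 1 of 2 NKT and MAIT cell, 2 of 2 CD4 T-cell, 1 of 4 plasmacytoid dendritic cell and 1 of 4 mast cell and basophil genes tested rose, 3 of 6 stem and progenitor cell genes fell and 1 rose, 1 of 8 erythroid genes fell, and none of 3 megakaryocyte genes passed. These counts stand beside 14.1% of all genes tested that were higher and 13.7% that were lower. Among the genes counted as risen, *Xcr1*, *C1qa*, *Klra8* and *Zbtb16* had every flow-through value under 1 FPKM. *Adgre1* (0.276 to 1.19 FPKM) and *Cd4* (0.310 to 1.28 FPKM) had a flow-through mean under 1 FPKM. All of these genes passed the filter of 1 FPKM only through their enriched libraries, so a fall could not have been counted for them. The part of cells of these types in the values of *Slamf8*, *Slamf9* or the other members was not tested. The CD8+ T cells had been isolated by negative selection, a step meant to remove such cells, before the column. In bulk samples, more cells of a type and more RNA per cell cannot be told apart.

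Both adaptors rose, with smaller log2 fold changes than those of *Cd48*, *Slamf1* and *Slamf7*. *Sh2d1a* (X chromosome, 42502453 to 42529330, plus strand), the gene of SAP, was at 20.9, 41.7, 32.7 and 37.4 FPKM in flow-through libraries and at 58.8, 51.1, 51.7 and 56.0 FPKM in enriched libraries. The fractions did not overlap, and the mouse with the lowest flow-through value had the highest enriched value. The mean rose from 33.2 ± 8.97 to 54.4 ± 3.65 FPKM, a ratio of 1.64 (log2 fold change 0.74 by limma with SE 0.19, adjusted p = 0.022). The call was lost without flow-through replicate 3 or without enriched replicate 1, 2 or 4, where the log2 fold change was 0.70 to 0.77 and the adjusted p 0.0503 to 0.060, and under T-cell scaling (0.46, adjusted p = 0.070). Over all 14 alternatives its adjusted p ran from 0.0062 to 0.070. The end of *Sh2d1a* overlaps *Tenm1* on the other strand, which had a mean of 0.0047 FPKM.

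*Sh2d2a* (chromosome 3, 87846755 to 87855722, plus strand) was at 30.5, 44.4, 39.7 and 47.4 FPKM in flow-through libraries and at 68.1, 68.3, 71.9 and 69.0 FPKM in enriched libraries. The enriched libraries were nearly alike, and all were above the flow-through ones. The mean rose from 40.5 ± 7.39 to 69.3 ± 1.77 FPKM, a ratio of 1.71 (log2 fold change 0.78 by limma with SE 0.13, adjusted p = 0.0042). Under T-cell scaling the log2 fold change was 0.50 and the adjusted p was 0.067, the highest of its 14 alternatives, which started at 0.0011.

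**Figure D2:**
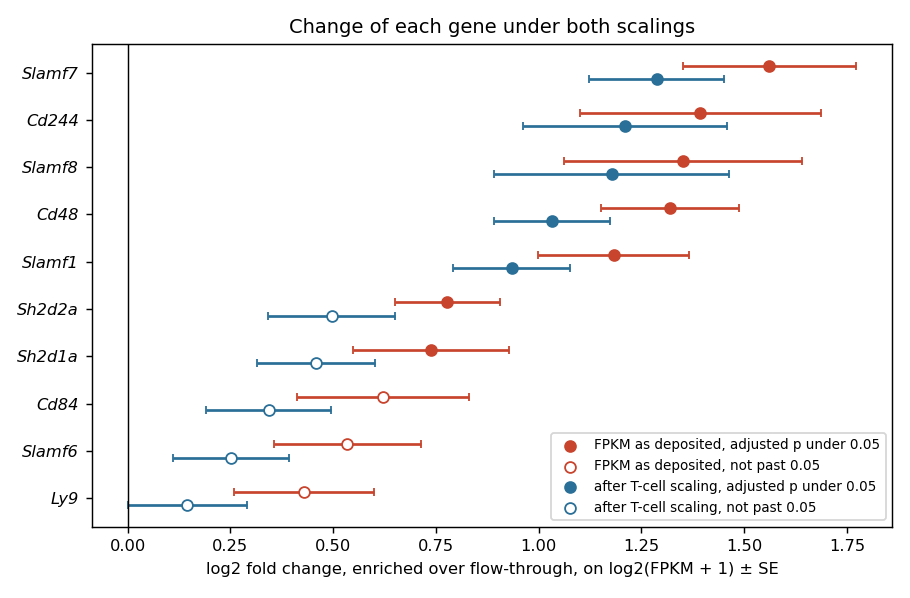
Log2 fold change (enriched over flow-through, on log2(FPKM + 1)) ± SE from limma for the 9 tested members and *Cd244*, from FPKM as deposited (red) and after T-cell scaling (blue), with filled points for an adjusted p under 0.05. All values are above 0, and *Slamf7*, *Cd244*, *Slamf8*, *Cd48* and *Slamf1* stay filled under both scalings.

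The 4 members called under both scalings (*Slamf7*, *Slamf8*, *Cd48* and *Slamf1*) stand beside 4.5% of all genes that were higher and 5.38% that were lower under T-cell scaling, where the median over all genes moved from -0.02 to -0.28 (log2 fold change). Of these members, *Slamf8* was in the tested set only through its enriched libraries. With the mouse as a block 9 members rose, beside 22.2% of all genes, and without flow-through replicate 1 also 9, beside 14.2%. All 10 members were higher in the enriched library in each of the 4 mice. The share of all genes with this pattern was not computed, and the flow-through library of mouse 1 had the low T-cell level given above. The fractions did not overlap for 9 members, beside 16.4% of all genes tested that did not overlap in that direction and 15.9% in the other. The within-mouse ratio was largest in mouse 1 for 9 members, and *Slamf8*, whose ratio was smallest there (2.41 against 4.76 to 5.89), was the exception.

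The members were also expressed relative to the T-cell genes of the same library. *Cd48* was at 71.5, 69.2, 64.0 and 61.3% of the T-cell level in flow-through libraries and at 138.2, 136.5, 131.1 and 139.2% in enriched libraries. *Slamf7* went from 7.68 ± 0.77% to 19.4 ± 2.43% and *Slamf1* from 2.39 ± 0.095% to 4.94 ± 0.42%. These receptors differed between the fractions by more than the SD of either, and flow-through replicate 1 was not their lowest library except for a narrow margin in *Slamf1*. *Slamf6* was at 25.4 ± 1.24% and 30.4 ± 0.91% and *Cd84* at 12.7 ± 0.70% and 16.2 ± 1.49%. *Ly9* overlapped on this scale (24.2 ± 1.16% and 26.8 ± 1.44%), since flow-through replicate 1 was at 25.1% and enriched replicate 1 at 24.8%. The adaptors were at 13.8 ± 0.71% and 19.1 ± 0.95% (*Sh2d1a*) and at 17.2 ± 2.04% and 24.4 ± 1.00% (*Sh2d2a*).

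**Figure D3:**
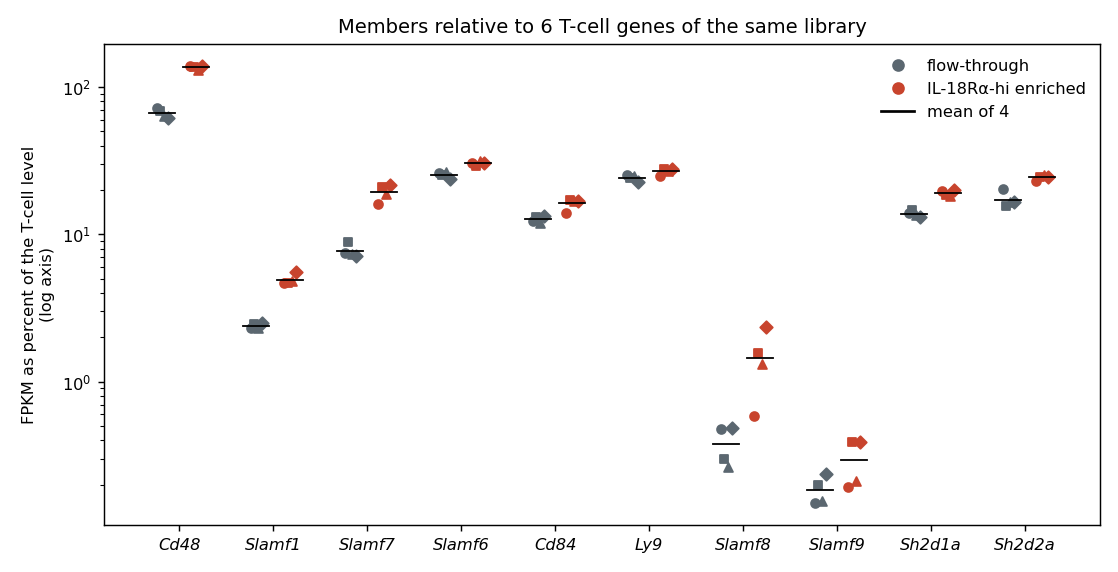
Level of each member as a percent of the geometric mean FPKM of 6 T-cell genes of the same library (log axis) in flow-through and IL-18Rαhi-enriched libraries, with a bar for the mean of 4 and the symbols of the replicates as in the plot of levels by library. *Cd48* went from 66.5% to 136.2%, while *Ly9* went from 24.2% to 26.8% and overlapped.

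The make-up of the receptors is given by their shares of the summed level. The 8 receptors together were at 333 ± 82.5 FPKM in flow-through cells and 670.2 ± 13 FPKM in enriched libraries. *Cd48* made up 47.6 ± 1.30% of this sum in flow-through cells and 57.8 ± 1.68% in enriched libraries, and *Slamf7* 5.51 ± 0.44% and 8.20 ± 0.83%. The shares of *Slamf6* (18.3 ± 0.76% and 12.9 ± 0.65%), *Ly9* (17.4 ± 0.60% and 11.4 ± 0.38%) and *Cd84* (9.10 ± 0.76% and 6.87 ± 0.53%) were smaller in the enriched fraction although their levels were higher. *Slamf1* stayed a small part of the sum, with 1.72 ± 0.13% and 2.09 ± 0.13%. In the enriched libraries the order of mean FPKM was *Cd48*, *Slamf6*, *Ly9*, *Sh2d2a*, *Slamf7*, *Sh2d1a*, *Cd84*, *Slamf1*, *Slamf8* and *Slamf9*, and of these neighbors only the ranges of *Slamf7* and *Sh2d1a* overlapped. In the flow-through *Slamf7* stood behind *Sh2d1a* and *Cd84*, and neighbors overlapped except at the steps from *Cd48* to *Slamf6*, from *Slamf7* to *Slamf1* and from *Slamf1* to *Slamf8*.

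Ratios of members within a library do not depend on the scaling between libraries and were used to compare the members' changes. The ratio of *Slamf7* to *Ly9* was 0.296, 0.366, 0.293 and 0.315 in flow-through cells and 0.649, 0.752, 0.707 and 0.769 in enriched libraries, a 2.27-fold change. The ratio of *Slamf7* to *Cd84* was 0.536 to 0.668 in flow-through cells and 1.13 to 1.27 in enriched libraries, so *Slamf7* was the less abundant of these genes in flow-through cells and the more abundant after enrichment. There were 36 pairs of the 9 tested members, of which 20 had ratios that did not overlap between the fractions. Each of these had p = 0.029 by exact two-sided permutation, the smallest that 4 against 4 libraries allow, and an adjusted p of 0.051 over the 36 pairs, so no pair passed the threshold.

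Described after their values were seen, the pairs fell into sets. *Slamf7*, *Cd48* and *Slamf1* against *Slamf6*, *Cd84* and *Ly9* gave 9 of 9 ratios without overlap, with changes of 1.61-fold to 2.27-fold. The same 3 genes against the adaptors *Sh2d1a* and *Sh2d2a* gave 6 of 6, with 1.45-fold to 1.82-fold. The adaptors against *Slamf6*, *Cd84* and *Ly9* gave 3 of 6, with 1.08-fold to 1.28-fold, and no pair within these 3 sets was free of overlap. *Slamf1* and *Cd48* kept nearly the same ratio: its log2 value was -4.79 ± 0.14 in flow-through cells and -4.79 ± 0.11 in enriched libraries (exact permutation p = 0.97, n = 4 per fraction), with changes within mice from -0.05 to 0.06. *Slamf8* against the 8 others gave 2 of 8 ratios without overlap, at 1.40-fold to 3.19-fold.

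The partners of these receptors were taken from a list of 24 other gene names of the pathway, with *Cd244* under an older and a newer name, of which 23 were in the table and 21 were tested. Of these, 9 rose and none fell (limma adjusted p under 0.05), 12 were higher and none lower at an unadjusted p under 0.05, and their median log2 fold change was 0.33, beside -0.02 over all genes. The shares over all genes were 14.1% higher and 13.7% lower at the adjusted threshold, and 2433 and 2594 of the 12166 genes passed the unadjusted one. Among the ligands and receptors, *Cd244*, the receptor of CD48, was at 0.818, 2.32, 1.66 and 3.22 FPKM in flow-through libraries and at 4.0, 7.18, 6.61 and 9.39 FPKM in enriched libraries. Its fractions did not overlap, and replicate 1 was lowest and replicate 4 highest in both, as for the dendritic cell and NK cell sums in the enriched fraction, whose part in its value was not tested. Its log2 fold change was 1.39 (limma, SE 0.29, adjusted p = 0.010), and it overlaps *Ly9*, whose level is far higher, on the opposite strand. *Cd2*, another partner of CD48, was at 161 ± 44.7 and 234 ± 9.21 FPKM and did not pass (log2 fold change 0.58, adjusted p = 0.061), though it did with the mouse as a block (adjusted p = 0.030, range over 14 alternatives 0.015 to 0.17).

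The other adaptors of the SAP family were at low levels and not tested by limma. *Sh2d1b1*, the gene of EAT-2, was at 0.446 ± 0.221 and 0.951 ± 0.422 FPKM (exact permutation p = 0.14, n = 4 per fraction). *Sh2d1b2*, the gene of the related adaptor ERT, was at 0.168 ± 0.215 and 0.166 ± 0.112 FPKM. EAT-2 RNA was thus under 1 FPKM on average in the fraction in which *Slamf7* rose, and *Sh2d1a* RNA far above it.

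Of the kinases and phosphatases, *Fyn*, the kinase that SAP brings to the receptors, rose from 88.7 ± 17.7 to 134.6 ± 4.98 FPKM (log2 fold change 0.62, limma adjusted p = 0.014). *Csk*, which restrains Fyn and Lck, rose from 147.9 ± 4.89 to 185.6 ± 5.74 FPKM (0.33, adjusted p = 0.0070), and *Inpp5d*, the lipid phosphatase SHIP-1, from 36.8 ± 2.14 to 46.9 ± 5.92 FPKM (0.34, adjusted p = 0.042). *Lck* (336 ± 80.4 and 434 ± 12.6 FPKM) and the phosphatases SHP-1 (*Ptpn6*, 110.3 ± 15.8 and 133 ± 5.66 FPKM) and SHP-2 (*Ptpn11*, 23.9 ± 1.61 and 26.4 ± 0.86 FPKM) did not pass, although *Ptpn6* did with the mouse as a block (adjusted p = 0.036). Downstream, *Dok2*, an adaptor that dampens Ras signaling, rose from 44.6 ± 9.17 to 96.5 ± 6.05 FPKM (1.12, SE 0.14, adjusted p = 0.0018). *Gata3*, a transcription factor of T cells, rose from 12.7 ± 3.58 to 32 ± 2.31 FPKM (1.31, SE 0.19, adjusted p = 0.00245). *Zbtb16*, which encodes PLZF, a factor of innate-like T cells whose development needs SAP, rose from 0.405 ± 0.255 to 1.93 ± 0.69 FPKM (1.04, SE 0.23, adjusted p = 0.011), and this was 2.07 with a pseudocount of 0.1. All its flow-through values were between 0.158 and 0.691 FPKM, so it passed the filter of 1 FPKM, and entered the count of 9, through its enriched libraries. *Bcl10*, which acts between the T-cell receptor and NF-κB (0.52, adjusted p = 0.018), and *Nfkb1* (0.30, adjusted p = 0.035) rose by less. The call of *Inpp5d* was lost without each library in turn except enriched replicate 1 (0.29 to 0.36) and with no filter on low values (adjusted p = 0.063, range over its alternatives 0.0087 to 0.86), that of *Nfkb1* without flow-through replicate 1 or 3 or enriched replicate 2, 3 or 4 (0.24 to 0.31), and that of *Bcl10* without flow-through replicate 3 (0.51) or enriched replicate 4 (0.49).

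Among the other tested genes of the list, *Vav1*, *Prkcq*, *Plcg1*, *Plcg2*, *Dok1*, *Rasa1* and *Il4* did not pass and had log2 fold changes between 0.02 (*Dok1*) and 0.76 (*Plcg2*). *Plcg2*, which is typical of B cells, myeloid cells and NK cells, had an adjusted p of 0.12 without the block and of 0.00063 with it, and up to 0.27 among its alternatives. Under T-cell scaling only *Cd244*, *Dok2*, *Gata3* and *Zbtb16* rose, and the median of the list was 0.04. The calls of *Fyn*, *Csk*, *Inpp5d*, *Bcl10* and *Nfkb1* therefore depended on the scaling, whereas those of *Cd244*, *Dok2* and *Gata3* held in each alternative that tested them. Without flow-through replicate 1, 8 genes of the list rose.

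The chromosome 1 cluster holds the 8 receptor members and *Cd244* within 171559193 to 172590568 of mm10, a span of 1031 kb. In the same span the table listed 40 other genes, of which 12 were tested, and of these 3 rose and 1 fell, with a median log2 fold change of 0.17, beside 14.1% higher and 13.7% lower over all genes. *Gm37787*, the antisense gene inside *Slamf7*, rose from 1.62 to 5.52 FPKM (log2 fold change 1.31 by limma with SE 0.16, adjusted p = 0.0015), close to *Slamf7* itself. *Tagln2*, an actin-binding protein gene beyond *Slamf9*, rose by a log2 fold change of 0.46 (adjusted p = 0.014), *Copa*, a coat protein gene, by 0.25 (adjusted p = 0.022), and *Dcaf8*, a subunit of ubiquitin ligases, fell by 0.41 (adjusted p = 0.0052). Under T-cell scaling *Gm37787*, whose reads cannot be told from those of *Slamf7*, was the 1 neighbor that rose, and none fell. In the fit without the mouse as a block, the receptors that passed did not form an unbroken run within the cluster. The start site of *Ly9* lies between those of *Cd244* and *Slamf7*, and *Cd84* and *Slamf6* lie beyond *Slamf1*. *Ly9* is inside *Cd244* on the opposite strand, so the doubt about strand given above holds for both. *Ly9*, *Cd84* and *Slamf6* were also higher, and they passed with the mouse as a block (limma adjusted p of 0.034, 0.013 and 0.035).

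**Figure D4:**
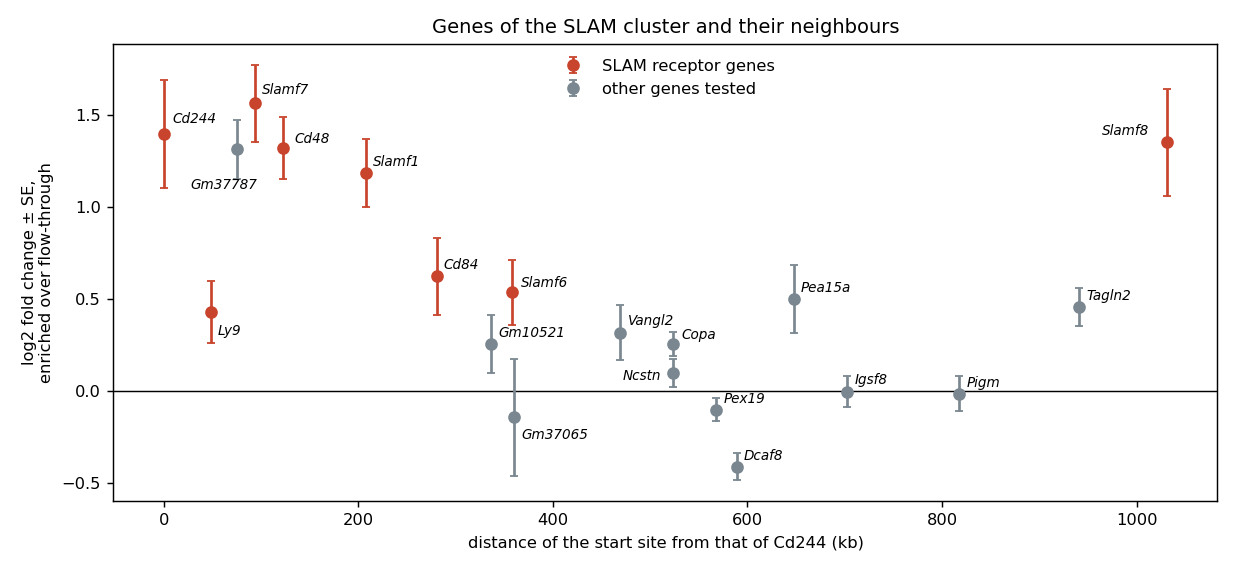
Log2 fold change ± SE (limma, enriched over flow-through) of the tested SLAM receptor genes (red) and of the 12 other tested genes (grey) against the distance of their start site from that of *Cd244* in kb. *Cd244*, *Slamf7*, *Cd48*, *Slamf1* and *Slamf8* lie above 1, *Ly9*, *Cd84* and *Slamf6* between 0.43 and 0.62, and the neighbors other than *Gm37787* at or below 0.50.

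For each member that rose, the genes with the most similar course over the 8 libraries were sought among 9321 genes whose mean reached 5 FPKM, by the root mean square distance of log2(FPKM + 1) centered on each gene's mean. For *Cd48* they were *Il2rb* (0.050), a chain of the receptors for IL-2 and IL-15, *Vim* (0.058) and *Tpm4* (0.061). For *Slamf1* they were *Sytl3* (0.036), *Trp53i11* (0.036) and *Aim1* (0.040), and for *Slamf7* they were *Fam129a* (0.059), *Tmem154* (0.093) and *Il18rap* (0.10), the partner chain of the selected receptor. The nearest genes of *Sh2d1a* were *Fkbp1a* (0.054), *Cers5* (0.055) and *Ms4a4b* (0.056), and those of *Sh2d2a* were *Akna* (0.033), *Esyt1* (0.051) and *Fmnl1* (0.058). *Slamf8* had no neighbor as close, with *Rasgrp4* at 0.14, *Cish* at 0.24 and *H2-DMb1*, a gene of antigen loading on MHC class II, at 0.24. These distances describe 8 libraries that share the difference between the fractions and the low replicate 1 of the flow-through.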

How the data were processed

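Per the labels, mRNA was purified with oligo(dT), built into stranded cDNA libraries and read as 150 bp paired ends. The deposited values are FPKM, which the authors computed with Cufflinks 2.1.1 from reads that had passed a quality filter and were aligned to mm10 with TopHat. Cufflinks corrected for multiply mapped reads and for fragment bias and otherwise ran with default settings, in which strand is not used. The annotation release is not given in the sources used here. FPKM hold no whole reads, so depth was only estimated and no count test was run. Gene identifiers were matched to GENCODE M21 (98.9% found) for coordinates.

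The fractions were compared with limma 3.58.1 (R 4.3.3, trended variance, two-sided) on log2(FPKM + 1) over the 12166 genes whose mean reached 1 FPKM, with Benjamini-Hochberg adjustment over all of them and a threshold of 0.05. The added 1 makes fold changes of weakly expressed genes too small. *Slamf9*, *Sh2d1b1*, *Sh2d1b2* and the ratios of members were compared by exact permutation of the libraries without their pairing by mouse (Python 3.11.15). The fit was also run on simulated data of independent libraries, which lack the pairing by mouse and the low flow-through replicate 1. The 4 mice each gave both fractions, so replicate numbers pair the libraries. Deviations of same-numbered libraries from their group means correlated at 0.66, 0.59, 0.31 and 0.47 across genes for replicates 1 to 4. No libraries were duplicates (highest r across genes 0.987).

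Alternatives were a pseudocount of 0.1, no filter, a mean of at least 5 FPKM, T-cell scaling, median-of-ratios scaling, the mouse as a block, and leaving out each library. Genes named were the members, a SLAM pathway list, *Il18r1*, cell type markers, the 3 genes nearest to each member called, and the 3 neighbors in the cluster with the largest change among those called, and *Copa*, a further neighbor called, was named after its values were seen. The members and lists were chosen with earlier results of these data known. The values of 1 gene of the pathway list are not reported here, although its counts and median include that gene.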

Additional observations from a re-analysis of the deposited data

Results flagged for a closer look

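In 3 of 64 groups of 4 libraries, the gap between 1 library and its nearest neighbor took up nearly the whole range of the group (Dixon's test at the 95% level), where chance gives about 1 in 20 groups, or 3.2 of 64. All were enriched replicate 1. *Cd84* was at 41.5 FPKM there, against 47.3 to 47.7 FPKM in the other enriched libraries. *Lck* was at 452.6 FPKM, against 426.1 to 428.6 FPKM. *Zbtb16* was at 0.892 FPKM, against 2.21 to 2.33 FPKM.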

How the results depend on the processing

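*Slamf1*, *Slamf7*, *Slamf8* and *Cd48* kept their direction and their call in every alternative in which they were tested, and a mean of at least 5 FPKM left *Slamf8* untested. A pseudocount of 0.1 moved the log2 fold change from 1.35 to 1.99 for *Slamf8* and from 1.04 to 2.07 for *Zbtb16*, and no filter on low values ended the call of *Inpp5d*. Under T-cell scaling *Sh2d1a* (0.46) and *Sh2d2a* (0.50) were no longer called. Under that scaling 548 genes were higher and 654 lower over the whole table, 4 pathway genes were higher, and 1 neighbor in the cluster was higher and 0 lower. The uncalled log2 fold changes of *Ptpn6* (-0.0040), *Ptpn11* (-0.14), *Vav1* (-0.062), *Prkcq* (-0.11), *Plcg1* (-0.11), *Dok1* (-0.26), *Rasa1* (-0.081) and *Il4* (-0.16) turned below 0. Median-of-ratios scaling called *Slamf6* (0.54, adjusted p = 0.046) and *Cd84* (0.63, adjusted p = 0.048).

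With the mouse as a replicate block, *Slamf6* (0.53), *Cd84* (0.62) and *Ly9* (0.43) were called, and 2705 genes were higher and 2763 lower over the whole table. The block ended no call of a member. With the block, the exact sign-flip test of a ratio of members cannot go below p = 0.125.

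When each library was left out in turn, the log2 fold change ranged from 0.34 to 0.63 for *Slamf6*, from 0.40 to 0.74 for *Cd84*, from 0.24 to 0.52 for *Ly9* and from 0.54 to 0.86 for *Sh2d1a*. The number of members called ran from 5 to 9. Over the whole table, 1107 to 1813 genes were higher and 939 to 1780 lower. The count fell most when enriched replicate 4 (1107 and 971) or enriched replicate 2 (1115 and 958) was omitted, and for lower genes also when flow-through replicate 3 was (939). Values near 0 changed sign for *Dok1* (-0.044 to 0.095) and *Il4* (-0.22 to 0.20). The cause was not tested for any of these changes.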
